A study of Mus musculus with 90 samples.

Results

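The guanylate-binding proteins are a family of large GTPases made in response to interferons. Members of the family gather on vacuoles and membranes that hold intracellular bacteria and parasites, help to break them open, and promote the activation of inflammasomes. Expression of the genes is switched on downstream of the interferon γ (IFNγ) receptor and its kinases JAK1 and JAK2. Promoters of genes that respond to IFNγ often hold a gamma-activated site (GAS) or an interferon-stimulated response element (ISRE), the latter bound by interferon regulatory factors such as IRF1. The mouse family was represented here by 10 genes, Gbp2 to Gbp11, chosen by name from the 53697 gene identifiers of the count table, with Ensembl identifiers matched to symbols. All 10 had a row in the table.

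Cultures of 2 mouse tumour lines were measured, the melanoma line YUMM2.1, of C57BL/6 origin, and the colon carcinoma line CT26, of BALB/c origin. Control cultures, given bovine serum albumin in place of IFNγ, were collected at 0, 1, 2 and 3 weeks. Naive cells, with no earlier exposure, received 50 IU/mL IFNγ for 2 h or 24 h at 0 weeks. In the remaining groups exposure to the same dose was continuous, for 1, 2 or 3 weeks, and RNA was taken with no rechallenge or at 2 h or 24 h of a rechallenge with fresh IFNγ. Each line gave 15 groups of 3 replicates, 90 samples in all. Each tumour type was represented by a single line, so that line, mouse strain and tumour type cannot be told apart.

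Sequencing by 3′ digital gene expression, which reads transcripts near their 3′ ends, gave total counts of 274719 to 3161276 per sample in YUMM2.1 and 295157 to 2205285 in CT26. Replicate 3 of the 3-week cultures without rechallenge had under 25% of the median total of its line in both lines, as did replicate 3 of the 1-week CT26 cultures without rechallenge. In all 17 comparisons within a line that use these 3 libraries, the same members were called without them, by a fit added after the counts were seen. Summed levels of 7 melanocyte genes were 15.6 to 69.8 counts per 1000000 (CPM) per YUMM2.1 sample and 0.636 to 16.9 in CT26. Of these, Sox10 was measured at a mean of 28.6 CPM in YUMM2.1 and 0 in CT26. Mitf, Dct, Tyr and Tyrp1 had higher means in CT26 (2.69, 2.55, 0.418 and 0.0132 CPM) than in YUMM2.1 (2, 0.893, 0.249 and 0 CPM). Pmel and Mlana had higher means in YUMM2.1 (0.279 and 0.00937 CPM) than in CT26 (0.0337 and 0 CPM). Of the epithelial genes, Krt20, Krt18 and Krt8 were measured in CT26 at 56.2, 16.5 and 0.0722 CPM, and Krt19, Epcam and Cdh1 were at 0. Leukocyte markers summed to at most 21.9 CPM in any sample, with Adgre1 and Cd3e at 0 in both lines, and the endothelial and fibroblast list was almost wholly Pecam1 (350 and 285 CPM). Because these are bulk samples, fewer expressing cells and less RNA per cell cannot be told apart.

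The members lie in 2 clusters (GRCm38, GENCODE M21). On the plus strand of chromosome 3 are Gbp5 (142493978 to 142522344), Gbp7 (142530342 to 142550149), Gbp3 (142560026 to 142573209) and Gbp2 (142620602 to 142638008). On the minus strand of chromosome 5 are Gbp8 (105014150 to 105139540), Gbp9 (105077630 to 105139539), Gbp4 (105115767 to 105139586), Gbp10 (105215699 to 105239533), Gbp6 (105270702 to 105293698) and Gbp11 (105323042 to 105346472). Gbp11 is annotated as a polymorphic pseudogene and the other members as protein-coding genes. The annotated spans of Gbp8, Gbp9 and Gbp4 overlap, with separate 3′ ends. Of the 50-base words in the last 500 bases of their transcripts, 7.29%, 4.28% and 14.2% were shared with other family genes. Reads from such shared stretches could have been assigned to another member. The coding sequences of Gbp6 and Gbp10 were 98.4% identical, those of Gbp4 and Gbp11 90.7%, and every other pair of members was below 90%. In the last 500 bases of its transcripts, where a 3′ method counts, Gbp10 shared 94.5% of its 50-base words with Gbp6. The division of counts between Gbp6 and Gbp10 is therefore uncertain, and both are also described by their sum.

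RefSeq promoter sequence (GRCm38.p6) was matched for 4 of the 10 members, all in the chromosome 3 cluster. The 250 bases upstream of the RefSeq start are shown for these because each window shown holds letters of a GAS or an ISRE-like element. Capitals mark matches to the GAS letters TTCNNNGAA and to the ISRE-like letters GAAANNGAAA or, on the other strand, TTTCNNTTTC. The windows are 3:142620413-142620662 for Gbp2 and 3:142559794-142560043 for the upstream start of Gbp3. For Gbp7 the window is 3:142530086-142530335 and for Gbp5 it is 3:142496684-142496933, all on the plus strand. The Gbp5 window lies wholly inside the GENCODE span given above, and those of Gbp2 and Gbp3 lie partly inside theirs. The annotations thus differ in where these genes start.
Gbp2: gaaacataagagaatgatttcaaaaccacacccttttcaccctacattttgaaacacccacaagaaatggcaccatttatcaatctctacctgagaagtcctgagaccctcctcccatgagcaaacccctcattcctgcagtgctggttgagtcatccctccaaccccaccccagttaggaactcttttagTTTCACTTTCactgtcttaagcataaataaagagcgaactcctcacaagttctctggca
Gbp3: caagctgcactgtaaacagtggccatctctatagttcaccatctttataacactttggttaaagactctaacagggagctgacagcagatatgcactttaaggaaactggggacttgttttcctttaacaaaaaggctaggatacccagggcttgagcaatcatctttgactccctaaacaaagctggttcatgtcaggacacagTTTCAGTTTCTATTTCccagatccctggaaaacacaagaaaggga
Gbp7: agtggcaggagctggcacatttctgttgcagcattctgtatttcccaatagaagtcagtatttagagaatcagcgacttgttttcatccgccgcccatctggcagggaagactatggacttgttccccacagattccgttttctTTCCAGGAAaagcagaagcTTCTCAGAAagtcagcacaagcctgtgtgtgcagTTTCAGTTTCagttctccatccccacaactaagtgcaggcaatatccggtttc
Gbp5: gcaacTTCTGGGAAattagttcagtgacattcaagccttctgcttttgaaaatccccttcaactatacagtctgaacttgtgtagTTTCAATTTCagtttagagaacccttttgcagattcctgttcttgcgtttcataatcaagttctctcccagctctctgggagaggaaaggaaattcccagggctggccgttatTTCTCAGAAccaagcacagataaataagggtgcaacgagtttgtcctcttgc
Gbp7 and Gbp5 each held 2 GAS matches and 1 ISRE-like match. In Gbp7 the GAS matches began 106 and 87 bases upstream of the start, and in Gbp5 they began 245 and 52 bases upstream. Gbp2 held 1 ISRE-like match, 59 bases upstream, and no GAS match. The window at the upstream start of Gbp3 held 2 overlapping ISRE-like matches, 45 and 39 bases upstream. The window at its other start (3:142560106-142560355) held no match to either set of letters. Of all 32851 promoter windows of this length, 2.98% held an ISRE-like match and 7.02% a GAS match. A match is a description of the letters only.

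In control cultures the family was expressed at low levels. Summed over the 10 members, the 12 control samples of YUMM2.1 ranged from 14.95 to 37.2 CPM and those of CT26 from 9.78 to 21.3 CPM. All 33 IFNγ-exposed samples of each line lay above every control, between 202 and 2524 CPM in YUMM2.1 and from 79.6 to 1516 CPM in CT26. Gbp2, Gbp3 and Gbp7 were above all controls in each of these 33 samples in both lines. Gbp6 was above them in 33 samples in YUMM2.1 and 25 in CT26. Gbp4 was above all controls in 33 of 33 samples in YUMM2.1 and in 30 of 33 in CT26, and Gbp9 in 30 and 28. In control cultures of YUMM2.1 the summed level was 20.9, 24.6 and 22.3 CPM at 0 weeks and 32.3, 37.2 and 32.8 CPM at 3 weeks, a ratio of means of 1.51. In CT26 it was 15.8, 16.9 and 13.7 CPM and then 21.2, 21.3 and 20.2 CPM, a ratio of 1.35. The 0-week and 3-week samples did not overlap in either line, and the sum was not tested. The median log2 fold change of the tested members was 0.815 in YUMM2.1 and 0 in CT26, beside 0.0323 and 0 over all tested genes. Between 0 and 3 weeks of control culture 0 members were called in YUMM2.1, where 0.521% of 9589 tested genes were, and 0 in CT26, where 0.916% of 8516 were. Calls throughout are adjusted p below 0.05 in edgeR's quasi-likelihood test over all tested genes of a line. Errors of log2 fold changes are approximate standard errors, the absolute estimate divided by the square root of the test's F statistic. At an unadjusted p below 0.05, 799 and 1025 of the tested genes differed in this comparison. Gbp5 in YUMM2.1 and Gbp11 in CT26 were too low to be tested within their line. Samples of a group are replicates by their labels, and p-values measure the spread between them, which may be technical.

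**Figure D1:**
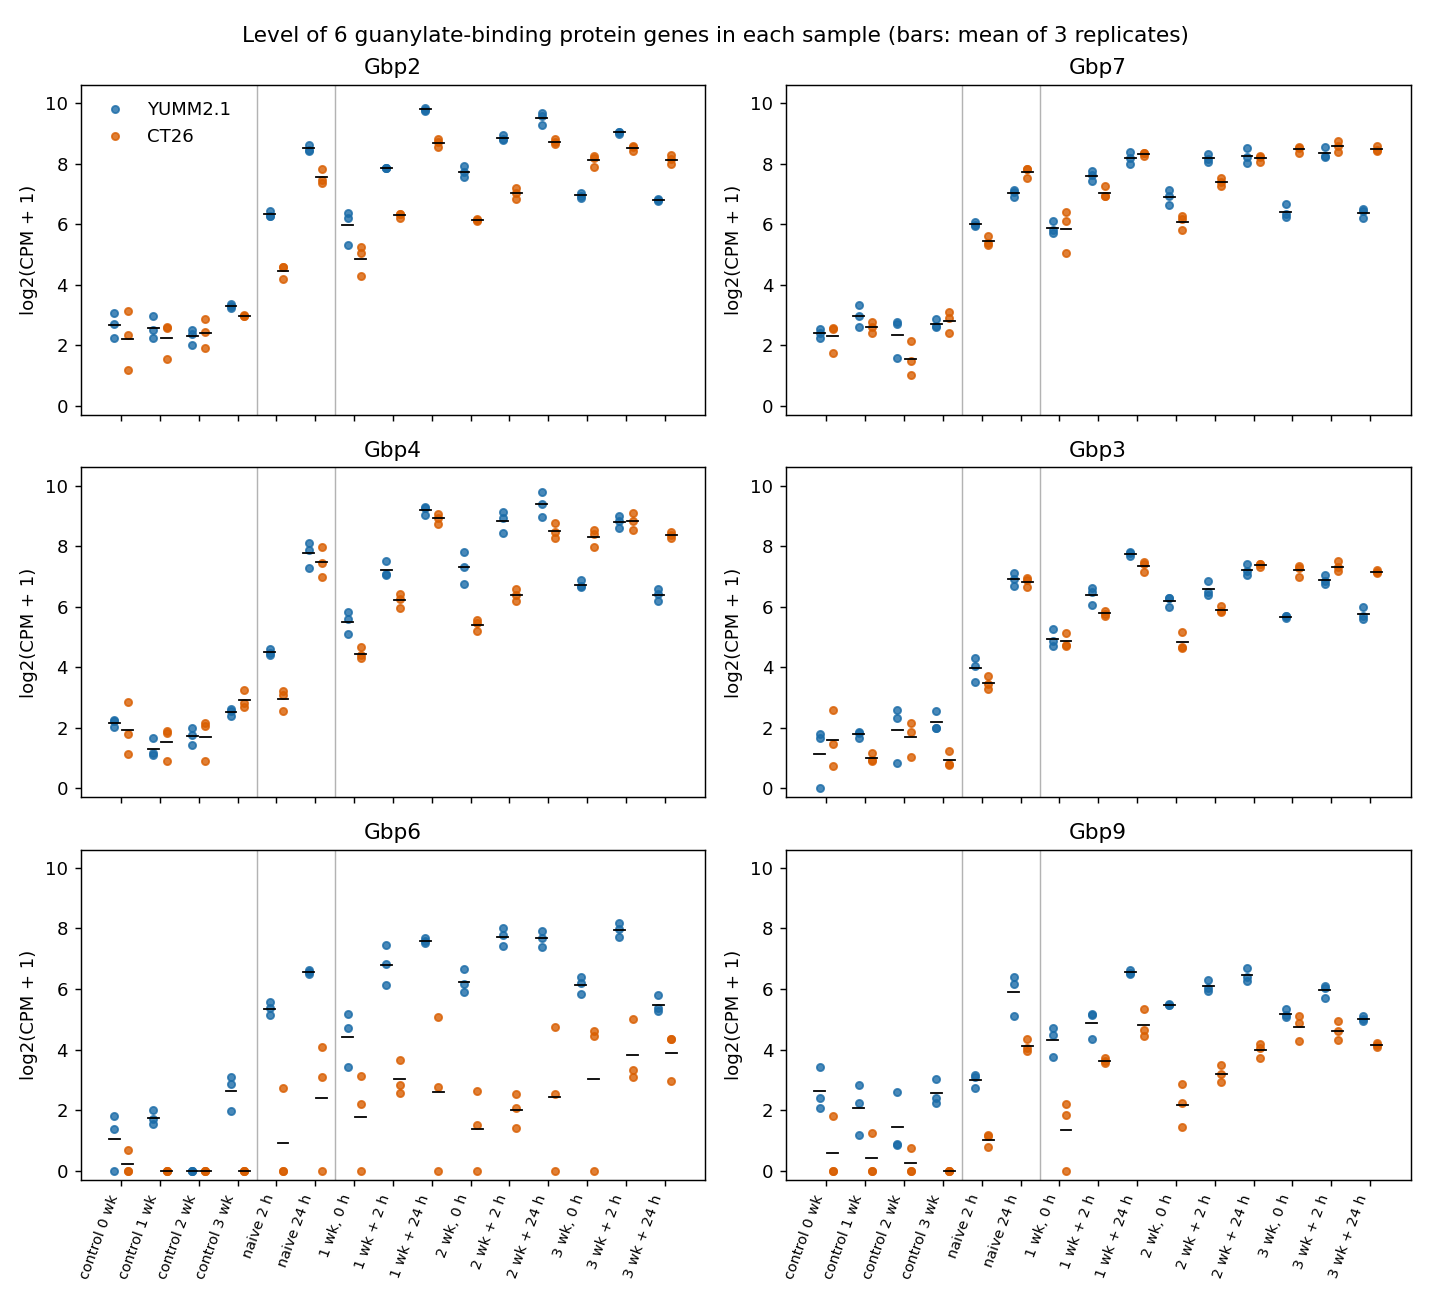
Level of the 6 best-counted members in each of the 90 samples, as log2(CPM + 1), over the 15 groups of each line in order of week and treatment; points are replicates. In YUMM2.1 the 3-week cultures fall back 24 h after rechallenge, while in CT26 the 3-week IFNγ groups stay high at every time.

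The question in naive cells was how soon and how far each member responds. After 2 h, Gbp2, Gbp7 and Gbp3 rose in both lines, and Gbp6 and Gbp4 rose in YUMM2.1 as well. After 24 h the family's mean in YUMM2.1 was 1009 ± 78.6 CPM (SD, n = 3), 44.6 times that of the 0-week controls. In CT26 its mean was then 733 ± 58.2 CPM (SD, n = 3), 47.4 times the control mean. Gbp9 and Gbp8 in YUMM2.1, and Gbp4, Gbp9 and Gbp5 in CT26, were called at 24 h but not at 2 h.

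At 2 h, 5 of the 10 members were called higher in YUMM2.1, where 0.240% of tested genes were, and 3 of 10 in CT26, where 0.235% were. Gbp2, a prenylated member that anchors in membranes, was at 3.75, 7.39 and 5.58 CPM in YUMM2.1 controls and at 85.2, 76.2 and 76.6 CPM after 2 h (log2 fold change 3.94 ± 0.23, adjusted p = 3.94e-18). In CT26 it was at 4.11, 1.25 and 7.75 CPM in controls and 17.4, 23.3 and 23.1 CPM after 2 h (2.31 ± 0.31, adjusted p = 3.24e-06). The groups did not overlap in either line. Gbp7, which is known to help assemble the phagosomal NADPH oxidase, was at 4.82, 3.69 and 4.34 CPM in YUMM2.1 controls and at 61.2, 62.0 and 66.0 CPM after 2 h (3.82 ± 0.25, adjusted p = 5.80e-16). In CT26 it went from 4.80, 5.02 and 2.38 CPM to 38.9, 40.9 and 48.2 CPM (3.45 ± 0.27, adjusted p = 1.54e-12), which made it the most counted member there, with 49.9% of the family's counts. Gbp6 had the largest estimate of the called members in YUMM2.1, 4.56 ± 0.51 (adjusted p = 2.52e-08), from 1.61, 0 and 2.48 CPM to 34.2, 46.3 and 40.4 CPM. Gbp4 rose in YUMM2.1 to 21.1, 20.2 and 23.4 CPM (2.61 ± 0.45, adjusted p = 0.000389), while in CT26 its 8.38, 4.94 and 7.50 CPM after 2 h overlapped the 6.17, 2.51 and 1.19 CPM of controls (1.20 ± 0.52, adjusted p = 1.00). Gbp9 was not called in either line at 2 h (0.53 ± 0.48 and 0.38 ± 0.89).

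At 24 h, 7 of the 10 members were called higher in YUMM2.1, where 0.855% of tested genes were, and 6 of 10 in CT26, where 1.77% were. The median log2 fold change of the tested members was 5.33 in YUMM2.1 and 5.42 in CT26, beside 0.0188 and -0.0215 over all tested genes. Gbp2 was then at 345, 351 and 389.9 CPM in YUMM2.1 (6.09 ± 0.20, adjusted p = 3.94e-27) and at 177, 165 and 225 CPM in CT26 (5.42 ± 0.24, adjusted p = 1.06e-21). Gbp4 reached 275, 234 and 156 CPM in YUMM2.1 (5.90 ± 0.34, adjusted p = 2.25e-18) and 252, 173 and 126 CPM in CT26 (5.78 ± 0.32, adjusted p = 1.85e-18). Gbp3 reached 103, 137 and 120.0 CPM and 121, 100.2 and 117 CPM, with log2 fold changes of 5.93 ± 0.31 and 5.45 ± 0.25. All 3 IFNγ samples lay above all 3 controls for each of these members in each line. Gbp7 rose by 4.82 ± 0.24 in YUMM2.1 and by 5.68 ± 0.24 in CT26. Gbp9 rose by 3.55 ± 0.37 in YUMM2.1, to 71.1, 84.1 and 33.3 CPM, and by 4.13 ± 0.60 in CT26, to 19.3, 14.6 and 15.7 CPM. Gbp8 was called in YUMM2.1 on 38 counts against 1 in controls, a ratio of 38.6 (exact 95% counting interval 6.53 to 1570). Gbp5, which is known to promote assembly of the NLRP3 inflammasome, was called in CT26 on 14 counts against 1 (adjusted p = 0.0443), a call lost without replicate 1 (adjusted p = 0.464) or replicate 3 (adjusted p = 0.0595) and in DESeq2 (adjusted p = 0.0541).

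The rise between 2 h and 24 h was compared as well, a comparison added after the counts were seen. Between these times 7 members rose further in YUMM2.1 and 5 in CT26, where 0.563% and 2.05% of tested genes differed in either direction. Gbp7 moved by 1.00 ± 0.16 in YUMM2.1 and 2.23 ± 0.17 in CT26. Gbp4 moved by 3.29 ± 0.25 and 4.58 ± 0.29, and Gbp9 by 3.02 ± 0.33 and 3.76 ± 0.58. The estimates of Gbp2 lay between those of Gbp7 and Gbp4 in both lines, at 2.15 ± 0.14 and 3.11 ± 0.19.

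**Figure D2:**
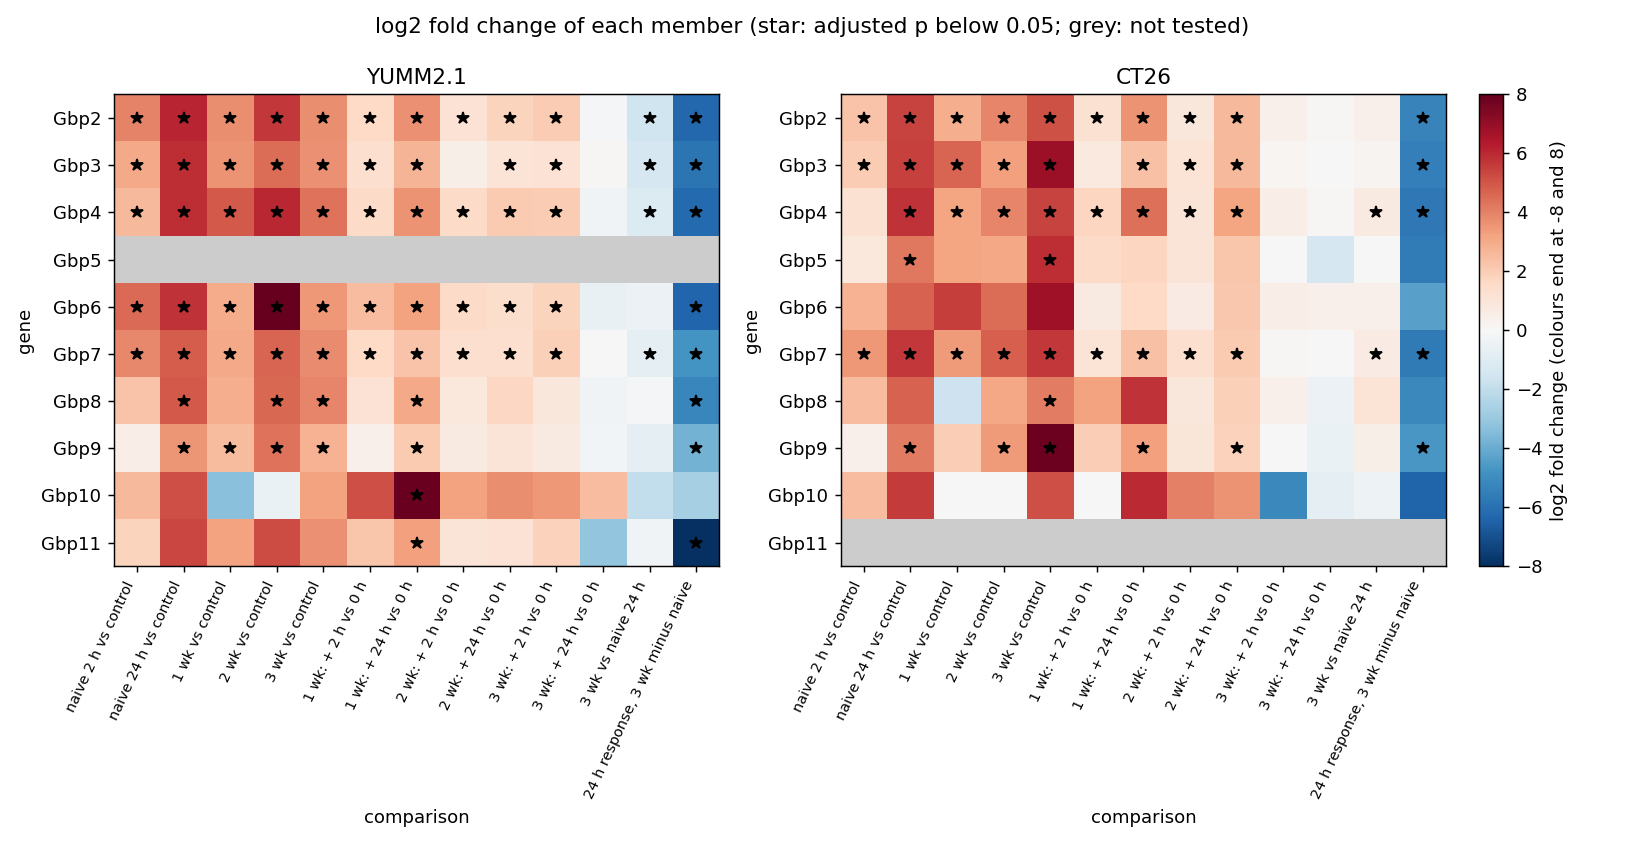
Log2 fold changes of the 10 members in 13 comparisons of each line (colour scale), with stars for adjusted p below 0.05 and grey for members too low to be tested (Gbp5 in YUMM2.1, Gbp11 in CT26). Calls are dense in the comparisons with control cultures and absent in the 24 h rechallenge after 3 weeks in both lines.

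Under continuous exposure the family stayed above all controls without rechallenge. In YUMM2.1 the summed level was 246 ± 38.3, 702 ± 134 and 484 ± 16.7 CPM after 1, 2 and 3 weeks, and in CT26 it was 146 ± 21.9, 215 ± 0.137 and 1157 ± 52.7 CPM (SD, n = 3). Between 2 and 3 weeks Gbp2 was lower in YUMM2.1, whereas Gbp2, Gbp3, Gbp4, Gbp7 and Gbp9 rose in CT26. After 3 weeks CT26 held more of Gbp4 and Gbp7 than naive CT26 cells after 24 h, and YUMM2.1 held less of Gbp2, Gbp3, Gbp4 and Gbp7 than naive YUMM2.1 cells after 24 h.

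Against controls of the same age, 6 members were called higher at 1 week in YUMM2.1 (0.657% of tested genes), 7 at 2 weeks (0.897%) and 7 at 3 weeks (0.720%). In CT26 the numbers were 4 (0.658%), 5 (0.928%) and 7 (3.44%). The medians of the tested members at 3 weeks were 3.67 in YUMM2.1 and 5.66 in CT26, beside 0.00174 and 0.0156 over all tested genes. In YUMM2.1, Gbp2 was at 8.50, 9.39 and 8.86 CPM in 3-week controls and at 130.4, 122 and 116 CPM after 3 weeks of IFNγ (3.69 ± 0.18, adjusted p = 1.51e-20). In CT26 it was at 6.83, 7.10 and 6.87 CPM and at 239, 292 and 302 CPM (5.09 ± 0.22, adjusted p = 5.32e-22). Gbp3 had the largest estimate among the members with a count in the 3-week controls of CT26, from 0.759, 0.710 and 1.37 CPM to 162, 124 and 156 CPM (6.85 ± 0.28, adjusted p = 7.62e-23). In YUMM2.1 it reached 48.2, 50.6 and 51.0 CPM (3.66 ± 0.28, adjusted p = 4.81e-14). Again no IFNγ sample overlapped a control.

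Some members were not seen at all in particular controls. Gbp9 had 0 counts in the 3-week controls of CT26 and was at 18.5, 28.4 and 33.9 CPM after 3 weeks of IFNγ, at least 39.6-fold higher when the control group is set to 3 counts in all. Gbp6 had 0 counts in the 2-week controls of YUMM2.1 and was at 71.2, 99.7 and 59.3 CPM after 2 weeks, at least 83.5-fold higher, although 5 counts of Gbp10 fell in those controls. Gbp5 was called at 3 weeks in CT26, on 12 counts against 0 (at least 9.14-fold), with 20.3 CPM in the shallow replicate 3 and 3.70 and 2.58 CPM in the others. The call held without the shallow libraries (adjusted p = 0.0415) and was lost without replicate 1 (0.0838) or replicate 3 (0.131) of every group. Gbp8 was called at 3 weeks in both lines, on 25 counts against 4 in YUMM2.1 and 13 against 1 in CT26. Its call was lost without replicate 2 in YUMM2.1 (adjusted p = 0.255) and without replicate 1 (0.161) or replicate 2 (0.0898) in CT26. Gbp9 at 2 weeks in CT26 rested on 17 counts against 1 (adjusted p just below the threshold), and 4 members in place of 5 were called there when any replicate number was left out.

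From 2 to 3 weeks, 1 member was lower in YUMM2.1, where 0.0730% of tested genes differed. Gbp2 was at 210.4, 242 and 187 CPM after 2 weeks and lower in all 3 samples at 3 weeks (-0.82 ± 0.14, adjusted p = 0.00279). That call was lost without replicate 1 (adjusted p = 0.445) or replicate 2 (0.259) and when only the compared groups were fitted (0.182). In CT26, 5 members rose, where 3.17% of tested genes differed. Gbp4 was at 43.4, 46.3 and 35.7 CPM after 2 weeks and at 333, 366 and 251 CPM after 3 weeks (2.83 ± 0.22, adjusted p = 4.95e-13). Gbp7 went from 54.6, 71.3 and 77.2 CPM to 365, 377 and 329 CPM (2.27 ± 0.16, adjusted p = 4.16e-14), and Gbp2 from 71.1, 67.6 and 70.3 CPM to the level above (1.84 ± 0.17). All 3 samples at 3 weeks lay above all 3 at 2 weeks for these members. Gbp9 also rose (2.44 ± 0.46, adjusted p = 0.000846), a call lost without replicate 1 (adjusted p = 0.0820).

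Set against naive cells at 24 h, the 3-week level was lower for 4 members in YUMM2.1, where 0.594% of tested genes differed, and higher for 2 members in CT26, where 4.80% did. In YUMM2.1 the differences were -1.58 ± 0.14 for Gbp2, -1.32 ± 0.20 for Gbp3, -1.08 ± 0.22 for Gbp4 and -0.69 ± 0.17 for Gbp7 (adjusted p = 1.06e-10, 6.65e-05, 0.00528 and 0.0272). In CT26 they were 0.72 ± 0.20 for Gbp4 and 0.65 ± 0.15 for Gbp7 (adjusted p = 0.0230 and 0.00648). For Gbp2 in CT26 the difference was 0.38 ± 0.16 and did not pass the test.

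Rechallenge asked whether cells already living in IFNγ could raise the family further. Members rose after 1 and 2 weeks in both lines, but 24 h after rechallenge at 3 weeks no member was called above unchallenged cultures in either line. In YUMM2.1 at 3 weeks the summed level was 484 ± 16.7 CPM without rechallenge, 1770 ± 79.3 CPM at 2 h and 418 ± 20.6 CPM at 24 h. In CT26 it was 1157 ± 52.7, 1416 ± 115 and 1155 ± 13.4 CPM (SD, n = 3).

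After 1 week, 5 members were called higher 2 h after rechallenge in YUMM2.1 (0.501% of tested genes) and 9 after 24 h (1.12%), a number that was 7 in DESeq2 and 6 to 8 when a replicate number was left out. In CT26 the numbers were 3 (0.364%) and 5 (0.928%). The highest level of Gbp2 in the 90 samples was in YUMM2.1 at this point, 924, 882 and 862 CPM 24 h after rechallenge, from 72.8, 82.3 and 39.2 CPM without it (3.64 ± 0.14, adjusted p = 2.89e-24). Gbp2 in CT26 went from 37.2, 32.2 and 18.6 CPM to 446, 424 and 376 CPM (3.61 ± 0.19, adjusted p = 1.81e-18). Gbp4 in CT26 went from 20.0, 24.5 and 18.6 CPM to 535, 491 and 422 CPM (4.43 ± 0.26, adjusted p = 2.39e-17). Gbp10 was called only in this comparison, in YUMM2.1, at 19.3, 30.9 and 8.09 CPM against 0 counts (at least 28.6-fold, adjusted p = 0.00298), with its split from Gbp6 uncertain. Gbp11 was called there too, on 26 counts against 3 (ratio 10.5, counting interval 3.21 to 54.1).

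After 2 weeks, 4 members were called at 2 h in YUMM2.1 (0.417%) and 5 at 24 h (0.532%), and 4 (0.294%) and 5 (0.599%) in CT26. At 24 h Gbp2 rose by 1.80 ± 0.13 in YUMM2.1, to 757, 624 and 823 CPM, and by 2.60 ± 0.16 in CT26, to 401, 419 and 454 CPM. Gbp4 rose by 2.09 ± 0.20 and 3.13 ± 0.21. The 3 rechallenged YUMM2.1 samples had more Gbp2 than the 3 naive samples at 24 h, a difference that was not tested.

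After 3 weeks, 5 members rose 2 h after rechallenge in YUMM2.1 (0.876% of tested genes). Gbp2 went to 508, 533 and 527 CPM (2.02 ± 0.14, adjusted p = 7.77e-15), Gbp4 to 458, 388 and 507 CPM (2.06 ± 0.22, adjusted p = 2.21e-09) and Gbp7 to 304, 373 and 300.0 CPM (1.93 ± 0.16, adjusted p = 1.63e-12). At 24 h Gbp2 was at 112, 108 and 111 CPM, below all 3 unchallenged samples (-0.17 ± 0.15, adjusted p = 1.00), and Gbp4 at 71.0, 95.4 and 85.4 CPM (-0.31 ± 0.23). No member was called at 24 h, and no gene was called higher (0.00% of 9589). In either direction 351 genes had an unadjusted p below 0.05, and DESeq2 called 0 members higher. Between 2 h and 24 h, a comparison added after the counts were seen, 6 members fell, where 1.49% of tested genes differed. Gbp2 fell by 2.18 on the log2 scale (standard error 0.13, adjusted p = 1.23e-16), Gbp6 by 2.41 (0.25, adjusted p = 2.19e-09), Gbp4 by 2.37 (0.21, adjusted p = 7.68e-12), Gbp7 by 1.91 (0.15, adjusted p = 1.83e-13) and Gbp3 by 1.08 (0.18, adjusted p = 0.000141). Gbp11 fell as well, from 42 counts to 1. For each of these 6 members all samples at 24 h were below all samples at 2 h.

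In CT26 after 3 weeks no member was called at 2 h, where 0.0117% of tested genes were called higher, nor at 24 h, where 0.00% were. In either direction 618 and 439 genes had an unadjusted p below 0.05, and DESeq2 called 0 members higher at either time. Gbp2 was at 376, 379 and 339.6 CPM at 2 h, above all 3 unchallenged samples (0.43 ± 0.15, adjusted p = 0.506), and at 252, 283 and 308 CPM at 24 h (0.07 ± 0.15, adjusted p = 0.980). Gbp7 was at 332, 432 and 379.7 CPM and then 383, 344 and 350.2 CPM (0.09 ± 0.14 and 0.03 ± 0.14). Between 2 h and 24 h 0 members were called, where 0.0352% of tested genes differed and 586 had an unadjusted p below 0.05.

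**Figure D3:**
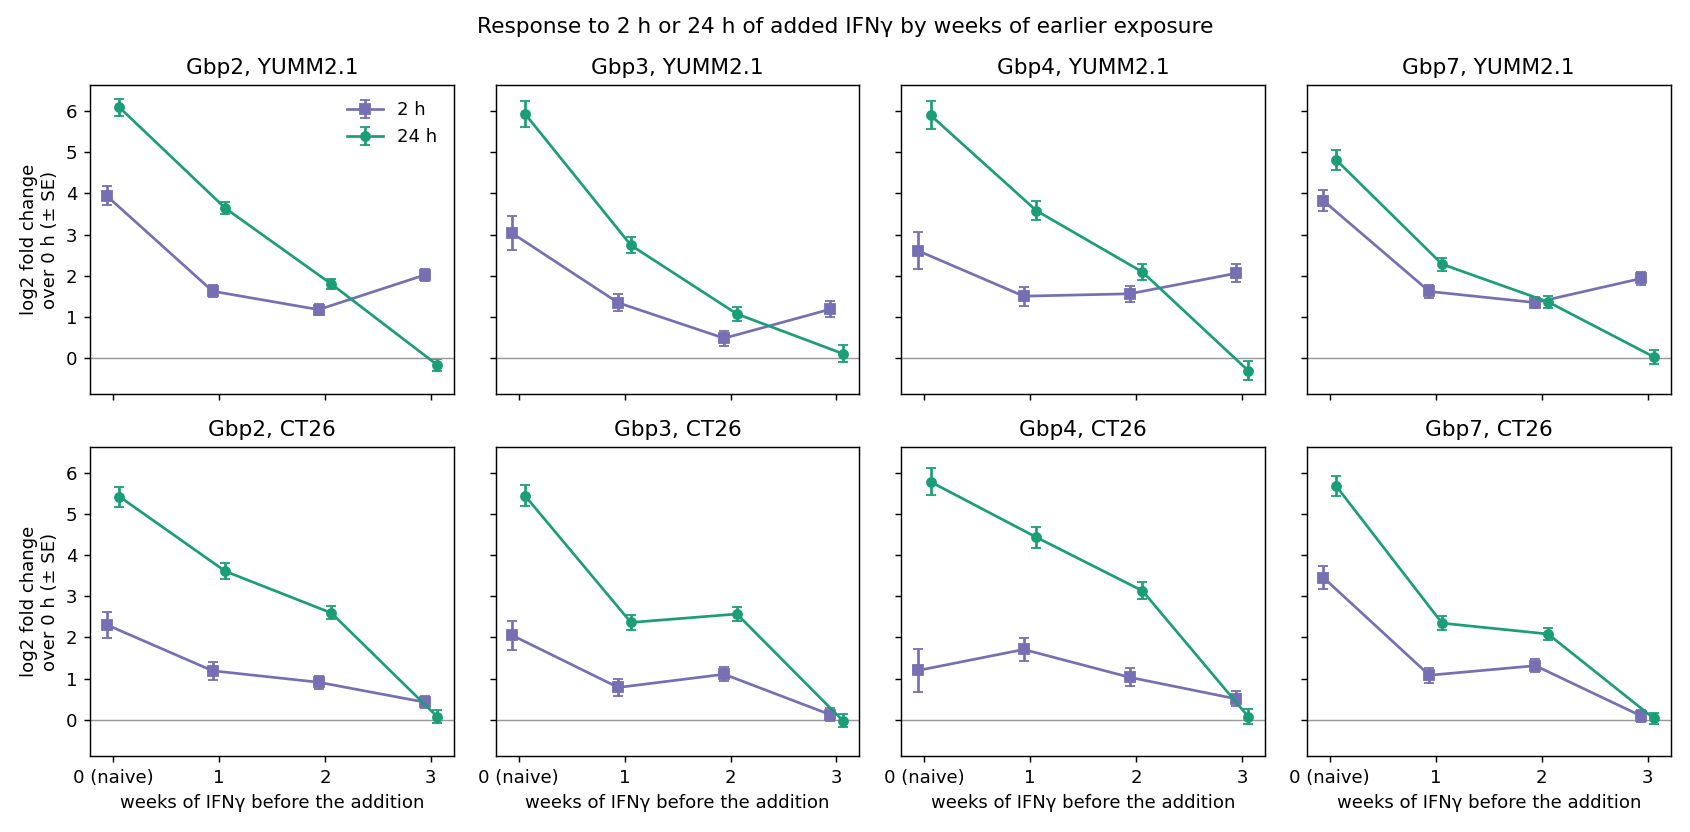
Response to IFNγ at 2 h and 24 h (log2 fold change ± SE against cells of the same week without fresh IFNγ) by weeks of earlier exposure, 0 being naive cells, for Gbp2, Gbp3, Gbp4 and Gbp7 in both lines. The 24 h response falls from 4.82 to 6.09 in naive cells to near 0 at 3 weeks.

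The difference between the 24 h response after 3 weeks and that of naive cells was tested directly. It was called, and negative, for 8 members in YUMM2.1, where 0.615% of tested genes differed, and for 5 in CT26, where 1.20% did. The medians of the tested members were -5.83 and -5.46, beside -0.0117 and 0.0135 over all tested genes. For Gbp2 the difference was -6.26 ± 0.26 in YUMM2.1 (adjusted p = 4.46e-23) and -5.35 ± 0.30 in CT26 (adjusted p = 4.96e-18). For Gbp3 it was -5.83 ± 0.41 and -5.46 ± 0.31, for Gbp4 -6.21 ± 0.44 and -5.71 ± 0.39, and for Gbp7 -4.79 ± 0.31 and -5.65 ± 0.29. Gbp9 had the smallest called difference in both lines, -3.75 ± 0.49 and -4.68 ± 0.74. The calls of Gbp8 and Gbp11 in YUMM2.1 were lost when a replicate number was left out, Gbp8 without replicate 2 (adjusted p = 0.665) or 3 (0.0682) and Gbp11 without any of the 3 (0.0815 to 0.985). The responses start from different levels. In YUMM2.1, Gbp2 was at 116 to 130.4 CPM in unchallenged 3-week cells and at 3.75 to 7.39 CPM in 0-week controls.

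At 2 h the difference was called for 2 members in YUMM2.1, where 0.115% of tested genes differed, and for 3 in CT26, where 0.211% did. Gbp2 differed by -1.92 ± 0.29 and -1.88 ± 0.35 (adjusted p = 8.89e-05 and 0.00261) and Gbp7 by -1.89 ± 0.33 and -3.36 ± 0.32 (adjusted p = 0.000919 and 8.54e-10). Gbp3 was called in CT26 (-1.92 ± 0.38, adjusted p = 0.00483) and not in YUMM2.1 (-1.85 ± 0.49, adjusted p = 0.208). Gbp4 had a difference of -0.55 ± 0.53 in YUMM2.1 and -0.69 ± 0.55 in CT26, neither past the test. The 2 h and 24 h differences share the 0-week controls and the unchallenged 3-week cultures.

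Between the lines, the level of 1 member differed at 0 weeks, of 5 in naive cells at 24 h and of 5 after 3 weeks of IFNγ, beside 46.0%, 43.6% and 39.5% of all tested genes. The counts of 5 in 10 are near these shares. At 0 weeks Gbp9 was lower in CT26, with 4 counts against 21 (-2.30 ± 0.73, adjusted p = 0.00705), where 46.0% of 10339 genes tested across both lines differed. The difference between lines in the naive 24 h response was called for 0 members. Of all tested genes it was called for 0.0870%, 848 at an unadjusted p below 0.05, and DESeq2 called 0 members. The difference in Gbp2 was -0.63 ± 0.45 and in Gbp7 0.90 ± 0.46, CT26 minus YUMM2.1.

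The response at 3 weeks was larger in CT26 for 3 members, where 0.106% of tested genes differed and the median of all tested genes was 0.103. Gbp3 differed by 3.28 ± 0.55 (adjusted p = 0.000272), Gbp7 by 1.97 ± 0.37 (adjusted p = 0.00197) and Gbp2 by 1.46 ± 0.34 (adjusted p = 0.0486). When any replicate number was left out, 1 of the 3 remained called, Gbp3 without replicate 1 or 2 and Gbp7 without replicate 3. Without the shallow libraries 2 were called and Gbp2 was not (1.33, adjusted p = 0.174). Gbp9 had the largest estimate, 5.42 ± 1.28, a size that depends on the fit's prior because CT26 had 0 counts in its 3-week controls. It missed the threshold (adjusted p = 0.0556) while DESeq2 called it (adjusted p = 0.0479).

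Levels in the lines were also compared directly, after the counts were seen. At naive 24 h, where 43.6% of tested genes differed and the median of all tested genes was -0.196, Gbp7 was higher in CT26 (0.93 ± 0.15, adjusted p = 5.32e-07). Gbp2 (-0.69 ± 0.15), Gbp9 (-1.67 ± 0.35), Gbp6 (-3.29 ± 0.65) and Gbp8 (-1.70 ± 0.72) were lower, the last with adjusted p = 0.0487, a call lost in DESeq2 (0.0659) and without any of the replicate numbers (0.0747 to 0.237). After 3 weeks, where 39.5% of tested genes differed and the median of all tested genes was -0.0422, 4 members were higher in CT26. The differences were 1.28 ± 0.16 for Gbp2, 1.71 ± 0.20 for Gbp3, 1.76 ± 0.23 for Gbp4 and 2.28 ± 0.17 for Gbp7 (adjusted p = 5.10e-10, 1.03e-11, 5.92e-10 and 3.57e-20). Gbp6 was lower in CT26 by -2.46 ± 0.67 (adjusted p = 0.00203), a call lost without replicate 1 (0.149).

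**Figure D4:**
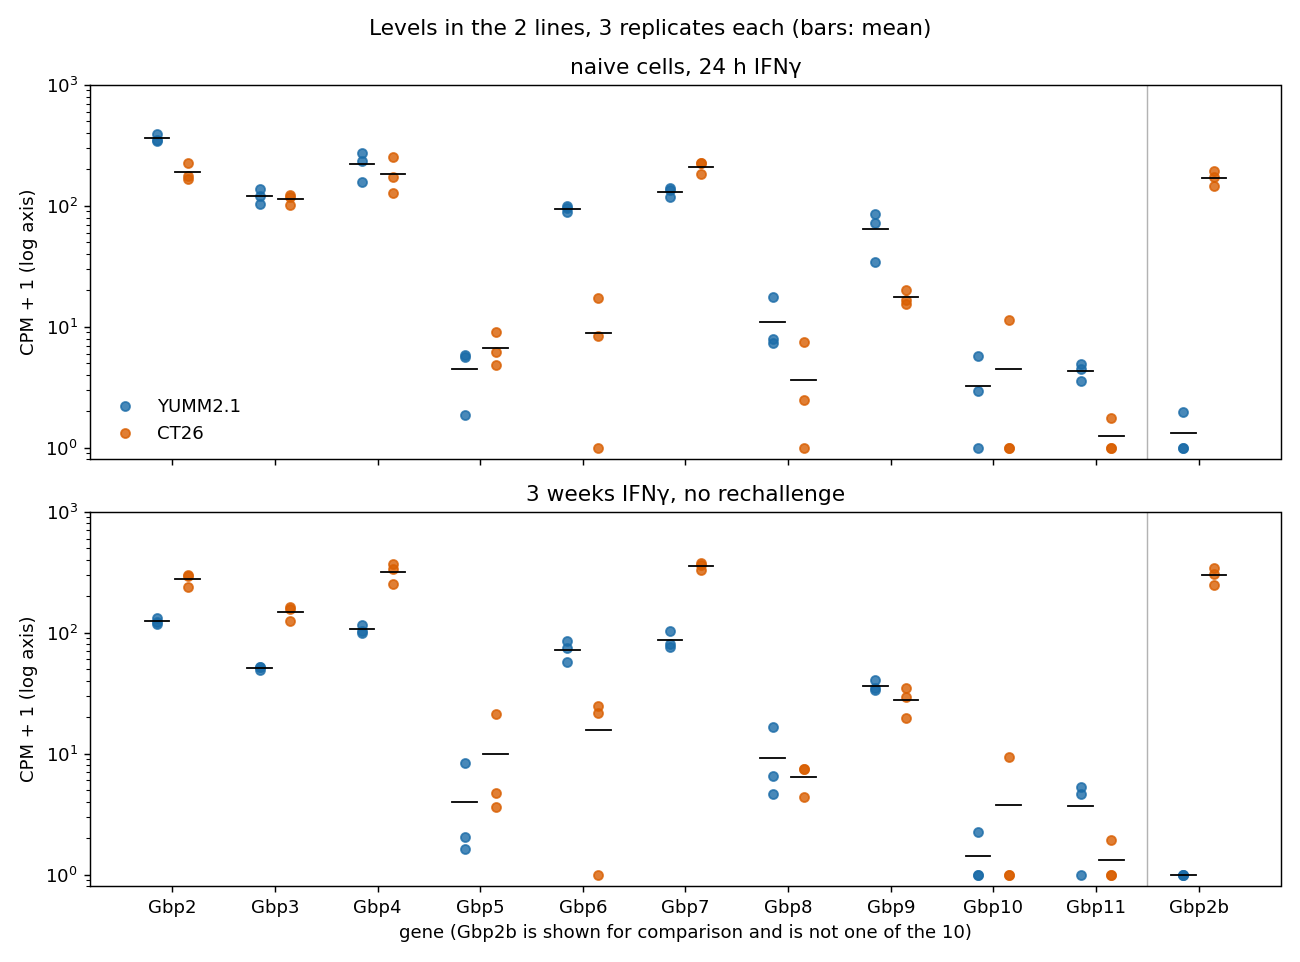
Level of the 10 members and of Gbp2b in naive cells after 24 h and in cells after 3 weeks of IFNγ, as CPM + 1 on a log axis, with a point for each of 3 replicates per line. Gbp6 lies lower in CT26 at both times, and Gbp2b is near 0 in YUMM2.1 only.

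Gbp2b is also a guanylate-binding protein gene by its name, but was not among the 10 members. It has 82.5% coding identity to Gbp2 and lies between Gbp3 and Gbp2 (chromosome 3, 142594847 to 142619179). Gbp2b was counted in CT26 and hardly in YUMM2.1. In YUMM2.1 a count was found in 3 of 45 samples, with at most 1 count in a sample. In CT26 it was at 195, 146 and 171 CPM in naive cells after 24 h, from 2.74, 3.76 and 3.58 CPM in controls (5.63 ± 0.25, adjusted p = 1.06e-21), and at 246, 304 and 339 CPM after 3 weeks. The sum of the 10 members does not include it.

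Shares of the family's counts are given as a description. These are shares of counts, and counts from 3′ ends do not scale with transcript length. Gbp2b is left out of the total, so the shares in CT26 and YUMM2.1 are not like for like. After 3 weeks without rechallenge it had 266, 235 and 100 counts in CT26 and 0 in each YUMM2.1 sample. Gbp2 made up 37.9% of the family's counts in naive YUMM2.1 cells at 24 h and 27.8% in CT26. Gbp7 made up 12.8% and 28.1%, and Gbp6 9.41% and 1.12%. In YUMM2.1 Gbp9 held 22.1% of the family counts of 0-week controls and 5.44% at 24 h. After 3 weeks Gbp7 and Gbp4 led in CT26 with 31.3% and 28.7%, and Gbp2 and Gbp4 in YUMM2.1 with 26.4% and 21.8%.

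**Figure D5:**
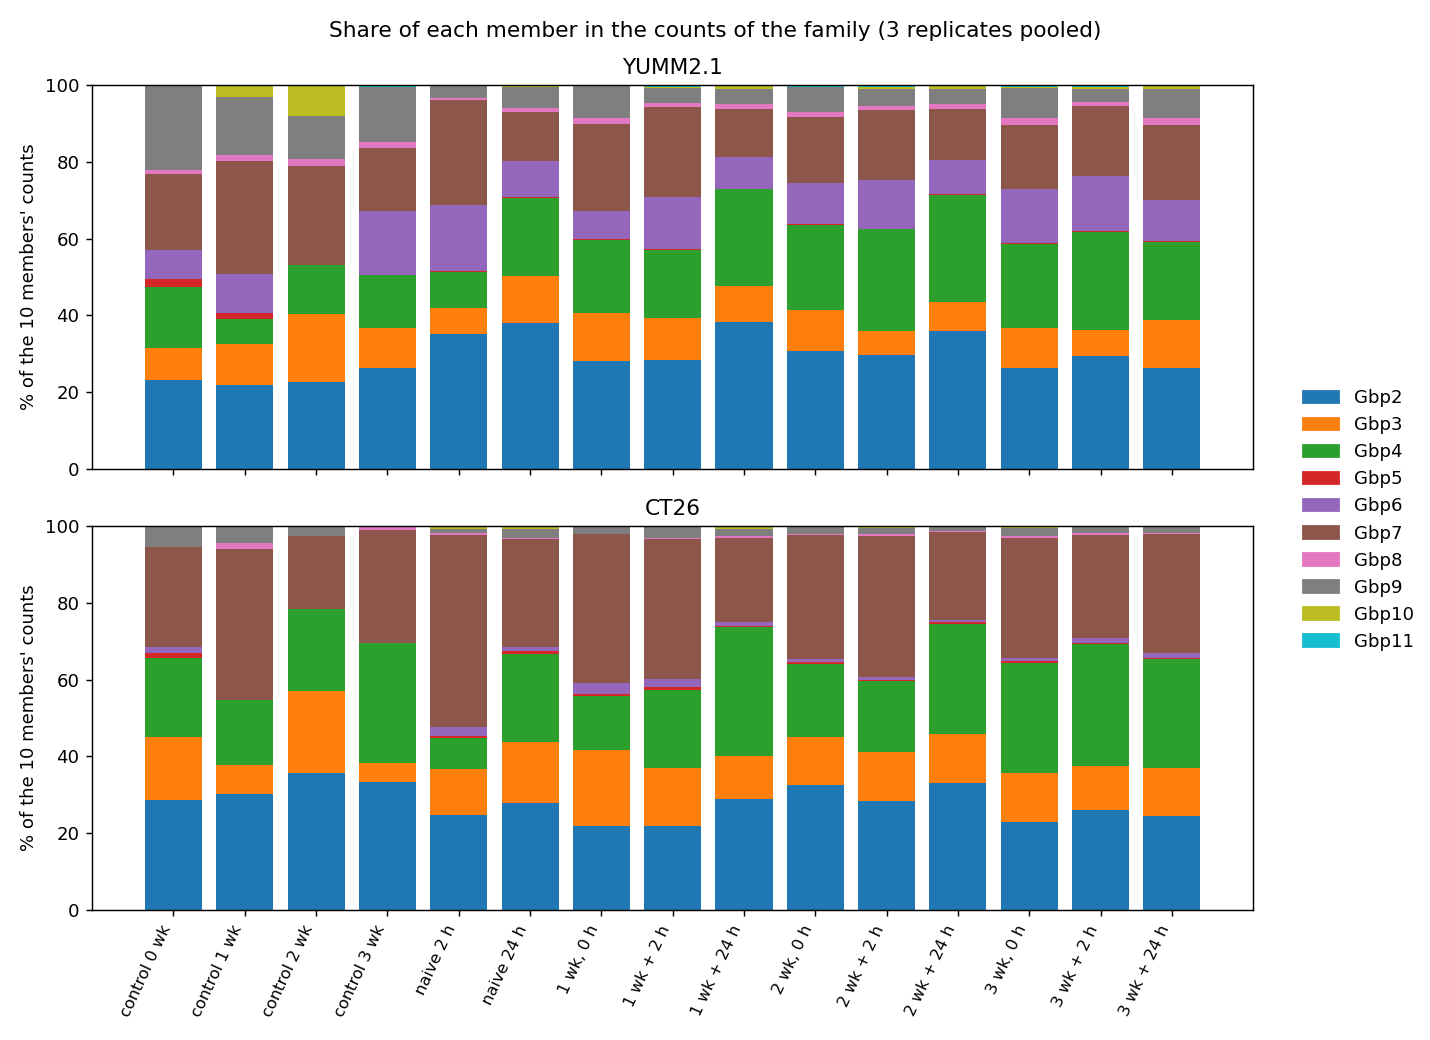
Share of the summed counts of the 10 members held by each member in the 15 groups of each line, in percent. In every IFNγ group Gbp7 takes a larger share in CT26 and Gbp6 in YUMM2.1. Shares of control groups rest on few counts, and in the 2-week controls Gbp7 held 19.0% in CT26 and 25.8% in YUMM2.1, with Gbp6 at 0 in both.

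Of the low members, Gbp5 reached at most 13 counts in a YUMM2.1 sample and 9 in CT26, and Gbp11 at most 21 and 7. The highest level of Gbp8 was 44.0 CPM in YUMM2.1, and in CT26 it was 12.6 CPM. Gbp6 and Gbp10 were also read together. In naive CT26 cells at 24 h Gbp6 was at 0, 16.2 and 7.47 CPM and Gbp10 at 0, 0 and 10.5 CPM, with sums of 0, 16.2 and 17.9 CPM. Of the 33 IFNγ samples of CT26, 7 had counts of both, 18 of Gbp6 only, 3 of Gbp10 only and 5 of neither, and in YUMM2.1 20 had both and 13 Gbp6 only. In a fit with near-identical members summed, the sum passed the test in CT26 at naive 24 h (log2 fold change 5.38, adjusted p = 0.0321) and at 3 weeks (7.19, adjusted p = 0.00621). In the main fit, which kept the genes apart, neither was called alone at these times. Gbp6 alone was called at 3 weeks in DESeq2 (adjusted p = 0.0248), with library totals as scaling (0.0456), with no filter (4.82e-08) and without replicate 1 (0.0399). With no filter Gbp6 and Gbp10 were each called alone at both times. In YUMM2.1 the sum rose by 5.79 at naive 24 h (adjusted p = 4.67e-13), close to Gbp6 alone (5.75 ± 0.46).

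Other genes of the pathway were followed as listed groups. Of the 8 immunity-related GTPases, which also act on pathogen vacuoles, 8 rose in YUMM2.1 and 7 in CT26 at naive 24 h, where Gm12250 was not called (adjusted p = 0.0667), and 8 in both lines at 3 weeks. At naive 24 h Iigp1 rose by 7.42 ± 0.29 in YUMM2.1 and 5.32 ± 0.30 in CT26, Gm12250 in YUMM2.1 from 1 count to 153 (ratio 156, counting interval 27.5 to 6180), and Tgtp1 in CT26 by 7.79 ± 0.58. Tgtp1 and Tgtp2 are near-identical copies whose counts may have been divided between them. Among the IFNγ signalling genes, Irf1 rose at naive 24 h and at 3 weeks in YUMM2.1 (2.82 ± 0.23 and 1.47 ± 0.23) and in CT26 (2.31 ± 0.27 and 2.53 ± 0.22). Stat2 rose at both times in CT26 (3.14 ± 0.49 and 3.86 ± 0.49) and was not called in YUMM2.1 (2.55 ± 0.68, adjusted p = 0.0548, and 1.13 ± 0.57, adjusted p = 0.495). Of 6 feedback genes 5 were tested. None was called in YUMM2.1 at either time. There Usp18, a protease that limits type I interferon signalling, had 13 counts against 0 at naive 24 h and 2 against 0 at 3 weeks. Its estimate at naive 24 h was 5.29 ± 1.47 (adjusted p = 0.0883), a size that depends on the fit's prior. Usp18 was called in CT26 at both times (3.93 ± 0.27 and 3.81 ± 0.29). Of 7 inflammasome and pyroptosis genes 2 were tested. Casp1, the inflammasome protease, rose at naive 24 h in YUMM2.1 (0.99 ± 0.21) and CT26 (1.65 ± 0.35), and at 3 weeks in CT26 (1.35 ± 0.31). At 3 weeks in YUMM2.1 it was not called (0.67 ± 0.21, adjusted p = 0.142), with all 3 samples above the controls. The other tested gene was not called in either line. Of Gbp2b, itself a guanylate-binding protein gene, and the related atlastins Atl1, Atl2 and Atl3, 3 genes were tested in each line. Gbp2b alone was called, in CT26. No gene of these lists was called lower.

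Genes whose course over the 15 group means was among the most like that of the summed family were found by Pearson correlation of log2 CPM, a description over groups that share libraries. In YUMM2.1, of 9580 genes, they included Iigp1 (r = 0.990), Ifi47 (0.990), Igtp (0.988) and Insl6 (0.983). In CT26, of 8507 genes, they included Gbp2b (0.990), Ly6a (0.990), Ifi47 (0.988) and Gm43302 (0.987). Ifi47 was named in both lines.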

How the data were processed

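The authors deposited a table of whole-number counts per gene for 90 samples, not normalized and not pooled. The submitters' processing notes name Salmon 0.13.1 and the mouse genome mm10, and the study states import with tximport. Whether molecular identifiers were used, and how estimates became whole numbers, is not given in the sources used here. Of 53697 identifiers, 53668 matched a symbol. The study left out 5 samples, 1 of YUMM2.1 and 4 of CT26, without naming them, and all 90 were used here.

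The members and gene lists were chosen with earlier results of these data known. Groups came from the labels. CPM were counts over library totals. Counts were tested in R 4.3.3 with edgeR 4.0.16 (filterByExpr by group, TMM, quasi-likelihood test) in a fit of 15 groups per line, or of 30 for both lines, with Benjamini-Hochberg adjustment over 9589, 8516 or 10339 tested genes and a threshold of 0.05. The text names the members, up to 2 examples per pathway list (the largest called change at naive 24 h) and the 5 most similar genes per line (prior count 2). Irf1 and Gm12250 in CT26, and Stat2 and Usp18 in YUMM2.1, were named after their values were seen. Some results that these rules select are not reported here. Ratios against 1 to 3 counts have exact 95% intervals, and bounds use 3 counts over the group. Both cover counting error only. No duplicate libraries were found among replicates by chi-square tests of counts. Identity between members was taken from coding sequences in place of proteins, for which no table was used here.

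The alternatives were DESeq2 1.42.0, scaling by library totals, no filter on low counts, a fit of the compared groups alone, a replicate block, omission of each replicate number or of the 3 libraries with under 25% of the median total, and sums of near-identical members. The code was tested on simulated counts. Median totals were 1403265 counts in YUMM2.1 and 1318011 in CT26, so a member at 1 CPM rests on about 1 count.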

Additional observations from a re-analysis of the deposited data

Results flagged for a closer look

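The response to IFNγ after 3 weeks of exposure differed from that of naive cells, by a test of the difference itself in edgeR's quasi-likelihood fit, for the following members. Values are log2 differences, 3 weeks minus naive, with the standard error and adjusted p. At 24 h in YUMM2.1 they were -6.26 for Gbp2 (0.26, adjusted p = 4.46e-23), -5.83 for Gbp3 (0.41, 2.79e-15), -6.21 for Gbp4 (0.44, 2.79e-15), -6.35 for Gbp6 (0.57, 2.37e-11) and -4.79 for Gbp7 (0.31, 1.94e-16). Also at 24 h in YUMM2.1 they were -5.19 for Gbp8 (1.11, 0.00527), -3.75 for Gbp9 (0.49, 4.26e-07) and -8.48 for Gbp11 (1.86, 0.00951). Gbp11 had 0 counts in the 0-week controls, so that its size depends on the fit's prior. Its call was lost without any 1 of the replicate numbers (0.0815 to 0.985), and that of Gbp8 without replicate 2 (0.665) or 3 (0.0682). At 24 h in CT26 the differences were -5.35 for Gbp2 (0.30, 4.96e-18), -5.46 for Gbp3 (0.31, 4.96e-18), -5.71 for Gbp4 (0.39, 3.78e-15), -5.65 for Gbp7 (0.29, 4.16e-19) and -4.68 for Gbp9 (0.74, 2.51e-05). At 2 h they were -1.92 for Gbp2 (0.29, 8.89e-05) and -1.89 for Gbp7 (0.33, 0.000919) in YUMM2.1. In CT26 at 2 h they were -1.88 for Gbp2 (0.35, 0.00261), -1.92 for Gbp3 (0.38, 0.00483) and -3.36 for Gbp7 (0.32, 8.54e-10).

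The response to 3 weeks of IFNγ was larger in CT26 than in YUMM2.1, by the same kind of test, for Gbp2 (1.46, standard error 0.34, adjusted p = 0.0486), Gbp3 (3.28, 0.55, 0.000272) and Gbp7 (1.97, 0.37, 0.00197). The Gbp2 call was lost with no filter (adjusted p = 0.180), with the compared groups alone (0.0751) and with the replicate block (0.0507). It was also lost without the shallow libraries or any replicate number (0.174 to 0.581). Gbp3 lost its call without replicate 3 (0.0973), and Gbp7 without replicate 1 (0.101) or 2 (0.431). No group had enough samples for a test of single samples that stand apart.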

How the results depend on the processing

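No member value that was called, as reported or under the alternative, changed sign, while 45 member values without a call did. Among member counts, 8 members in place of 5 were called in YUMM2.1 24 h after rechallenge at 2 weeks when no filter was used. For 3 against 2 weeks in YUMM2.1, where 1 member was called, 2 were called with no filter, 0 with the compared groups alone and 0 to 1 when a replicate number was left out. For the 3-week response between lines, where 3 were called, 1 was called without any of the replicate numbers, 2 without the shallow libraries and 4 in DESeq2. The cause was not tested, apart from the smaller number of samples or genes that some alternatives fit by construction. All other member counts stayed within 1.5 times the value given.

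Whether replicate numbers pair the samples was not tested. Deviations from the group means correlated between same-numbered samples at a mean of -0.00156 in YUMM2.1 and 0.00581 in CT26. Between samples of other numbers the means were 0.000871 and -0.0029. Of the 315 same-numbered pairs per line 18 and 35 were over 0.1, and 14 and 21 of 45 samples were closest to their own number. With the replicate block the count became 7 in place of 5 for YUMM2.1 24 h after rechallenge at 2 weeks, 4 in place of 5 for 2 weeks in CT26, and 6 in place of 5 for the 24 h difference in CT26. Under the block Gbp2 lost its call in the 3-week response between lines (adjusted p = 0.0507) and Gbp9 gained it (0.0496).

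Depth limits Gbp5, Gbp8, Gbp10 and Gbp11, which had few counts in most samples. For these members a missing call does not show that the member was absent or unchanged. Gbp8, for example, had 29, 21 and 20 counts in YUMM2.1 2 h after rechallenge at 3 weeks, where it was not called.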
